A study of Mus musculus with 4 samples.

Results

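The DNA damage response and repair genes described here are 36 mouse genes, listed by name: checkpoint kinases, chromatin mediators, break sensors, homologous recombination proteins, helicases, Fanconi proteins and end-joining proteins. All 36 were found by symbol among the 54021 symbols of the count table. Of these, 29 had a mean above 10 CPM (a gene's reads scaled to a common library total) over all libraries and were tested with the 11758 genes that passed this filter, and the other 7 had a mean from 1 to 10 CPM. The filter matters for a few: Atm, Fancm, Blm and Lig4 had an INK128 mean under 10 CPM and Rad52 a control mean under 10 CPM, so they passed through the group in which they were higher.

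The libraries were RNA-seq of reconstituted ovaries (rOvaries), ovary-like grafts grown beneath the kidney capsule after primordial germ cells were re-aggregated with somatic cells of the fetal gonad. Donor cells were isolated from fetal gonads of C57BL/6 females crossed with C57BL/6 actin-GFP males, and the recipients were bilaterally ovariectomized, second-generation telomerase-deficient (G2 Terc-/-) C57BL/6 females, 2 to 3 months old per the study's methods. The INK128 group (replicates 1 and 2) received this inhibitor of both mTOR complexes in the drinking water, and the control group (replicates 1 and 3) did not. The labels give the dose as 0.75 µM per g. The study's methods instead give a concentration in the water and an approximate daily amount per body weight. All grafts were collected 1 month after transplantation. The labels do not say whether the libraries came from separate animals or pools, so p-values measure only the spread between these 4 samples.

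Cells answer a broken or stalled DNA molecule by activating the kinases ATM, ATR and DNA-PKcs, which phosphorylate the histone variant H2AX and recruit mediators such as MDC1 and 53BP1. The break is then joined end to end or copied from the sister chromatid by homologous recombination, and the Fanconi proteins open the way for repair of crosslinks between the strands. In the ovary this system repairs the programmed breaks of meiosis and watches over the DNA of resting oocytes, and short telomeres are known to activate ATM and ATR.

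Total counts ran from 19130209 to 23029089 per library, so that 3 counts corresponded to 0.13 to 0.157 CPM. The control libraries stood apart from each other: their log2 CPM correlated at 0.806 across genes and 13.8% of tested genes differed over 2-fold between them, against 0.98 and 1% for the INK128 pair. Reads of 4 Y-linked genes numbered 1021 in control replicate 1, 2 in INK128 replicate 1 and 0 in the other libraries, although all recipients were female and the study's methods describe the donor gonads as female. Foxl2, which defines granulosa cells, was present in every library, at 146 to 371 CPM. The summed level of 16 kidney markers was 95.6 and 171 CPM with INK128 and 725 and 1490 CPM in controls. Values without each control are therefore given for Atm, Fancc, Wrn, Bax and some other genes. Leaving out control replicate 1 or control replicate 3 also raised the share of all genes called, to 23.2% or 21.4% lower and 22.7% or 21.2% higher, since a lone control is assumed to vary like the INK128 pair.

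Across the 29 tested members, Atm alone fell and Fancc alone rose by edgeR. Calls at an adjusted p under 0.05 and over 1.5-fold covered 3.19% of all tested genes in the lower direction and 3.18% in the higher, so 1 of 29 in each direction is about the background. Both INK128 libraries lay below both controls for 14 of the 29 members, against 34.0% of all genes, and above both for 8, against 34.5%. The median log2 fold change (INK128 over control) was −0.41 for the members and −0.03 for all tested genes. Atm, Fancm, Blm and Lig4, which passed the filter through the controls, are among the 14. Rad52, which passed through INK128, is among the 8. With CPM above 10 in all 4 libraries, where fewer members were tested, 11 lay below (33.6% of genes) and 6 above (34.6%). The median of the members was then −0.22. Over all 36 members, fitted among genes with a mean above 1 CPM, 14 lay below (33.0% of genes) and 9 above (33.1%), the median was −0.19 and no gene of the table was called (0.0%). At an unadjusted p under 0.05 the 29 members counted 8 lower and 2 higher, where 18.7% of all tested genes were lower and 17.7% higher.

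**Figure D1:**
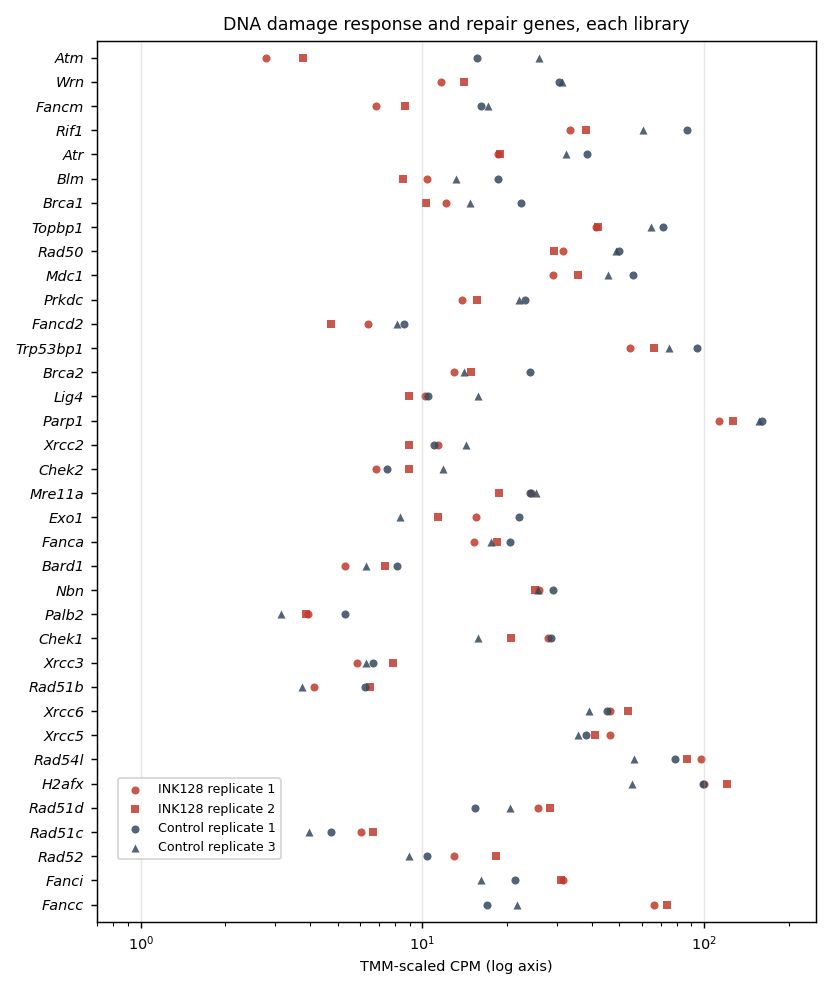
TMM-scaled CPM (log axis) of each of the 36 genes in each library, ordered by fitted log2 fold change from the lowest (top) to the highest. Red points are INK128 libraries and dark points controls, with a shape per replicate. Atm, at the top, has its INK128 points at 2.79 and 3.77 CPM and its controls at 15.6 and 26.0 CPM, and Fancc, at the bottom, shows the reverse order.

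The smallest adjusted p in the table was 0.0464, and 873 genes over the fold limit had adjusted p-values from 0.05 to 0.06, Wrn among them (0.0507). DESeq2 called 7 members lower (Atm, Wrn, Fancm, Rif1, Atr, Topbp1 and Rad50), where it called 15.1% of all genes lower, and Fancc higher, where it called 13.6% higher. With 2 samples against 2, an exact permutation test cannot give a two-sided p below 0.333, so the calls rest on the spread that these models share across genes.

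Promoter stretches are shown for 5 members, because many repair genes are switched on in cycling cells through E2F sites. RefSeq promoters on GRCm38.p6 matched 26 of the 36 members, with 30 promoters, and the 250 bases before each start were searched on both strands for the E2F motifs TTTGGCGC, TTTCCCGC, TTTGCCGC and TTTCGCGC, which do not contain each other. Such a motif was present in 6 members (Chek2, Mdc1, Topbp1, Bard1, Brca2 and Xrcc6), or 20% of member promoters against 1.86% of all 32851. The letters CCAAT, which do not overlap these motifs, were found in 50% of member promoters and 33.8% of all. The stretches of the 5 with the lowest fold change follow, 5′ to 3′ on the gene's strand, with the motif or its reverse complement in capitals.
Topbp1 promoter (chr9:103305168-103305214, plus strand): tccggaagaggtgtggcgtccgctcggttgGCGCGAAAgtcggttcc
Mdc1 promoter (chr17:35841452-35841497, plus strand): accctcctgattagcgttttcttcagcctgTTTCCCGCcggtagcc
Brca2 promoter (chr5:150522423-150522490, plus strand): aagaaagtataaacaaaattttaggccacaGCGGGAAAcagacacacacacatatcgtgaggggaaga
Chek2 promoter (chr5:110839801-110839868, plus strand): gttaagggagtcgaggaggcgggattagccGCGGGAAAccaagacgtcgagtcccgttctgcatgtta
Bard1 promoter (chr1:71103147-71103211, minus strand): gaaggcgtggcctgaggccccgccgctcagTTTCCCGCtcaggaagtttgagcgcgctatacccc
Of the 4 tested members with the motif, 2 lay below both controls and 1 above, with a median log2 fold change of −0.55. Of the 16 tested members with a promoter and no motif, 8 lay below and 5 above, with a median of −0.30, and 34.0% of all tested genes lay below and 34.5% above. A match to these letters describes the sequence and not the binding of a factor.

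Among the checkpoint kinases, Atm, which is activated by double-strand breaks, stood at 2.79 and 3.77 CPM in the INK128 libraries and at 15.6 and 26.0 CPM in the controls. These rest on 52 and 82 counts against 353 and 617. Both INK128 libraries were far below both controls, and the controls themselves differed by 1.66-fold. Atm fell by 2.66 on the log2 scale (standard error 0.41, adjusted p = 0.0464 by edgeR), or 6.33-fold. The value was −2.98 without control replicate 1 and −2.24 without control replicate 3. The call was lost with mean CPM above 1 (adjusted p = 0.0558 by edgeR), with GC content offsets (adjusted p = 0.051 by edgeR) and in limma voom (adjusted p = 0.125), at log2 fold changes of −2.61, −2.51 and −2.60. Atm lies at chr9:53439149-53536740 on mm10, minus strand, and its exons sum to 10338 bases. It ranked 241 from the lowest among all 11758 genes, and 17 among the 1209 tested genes with exons over 10000 bases.

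Atr, the kinase of stalled replication forks, was at 18.5 and 18.8 CPM with INK128 and at 38.5 and 32.3 CPM in controls. Its groups did not overlap. At −0.93 on the log2 scale (standard error 0.21), Atr did not pass the edgeR test (adjusted p = 0.0614) but passed that of DESeq2 (adjusted p = 0.00649). Prkdc, which encodes the DNA-PKcs kinase of end joining, was at 13.8 and 15.6 CPM against 23.1 and 22.1 CPM, also without overlap (log2 fold change −0.62, adjusted p = 0.138 by edgeR). The effector kinases did not share this order. Chek1, the target of ATR, was at 27.9 and 20.6 CPM against 28.7 and 15.8 CPM, so its groups overlapped. Chek2, the target of ATM, averaged under 10 CPM and overlapped as well, at 6.82 and 8.97 CPM against 7.48 and 11.8 CPM.

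Of the chromatin mark and its mediators, all 4 mediators were lower in both INK128 libraries and H2afx, the gene of the histone H2AX that carries the break mark, was higher in both, where 34.0% of all genes lay below and 34.5% above. Of the mediators, 3 have over 10000 exon bases, a class in which 70.1% of genes lay below. None passed the edgeR test. Rif1, which holds back end resection, was at 33.4 and 38.0 CPM with INK128 and at 87.2 and 60.5 CPM in controls (log2 fold change −1.05, adjusted p = 0.063 by edgeR). Topbp1, an activator of ATR, was at 41.4 and 41.9 CPM against 71.3 and 64.6 CPM (−0.71, adjusted p = 0.0646 by edgeR). Rif1 and Topbp1 were the mediators called by DESeq2. Mdc1, which binds the phosphorylated histone, was at 29.0 and 35.5 CPM against 56.0 and 45.4 CPM (−0.65). Trp53bp1, which encodes 53BP1 and favours end joining, was at 54.4 and 66.1 CPM against 94.6 and 74.9 CPM (−0.49). H2afx was at 99.6 and 120 CPM against 98.7 and 55.4 CPM. The INK128 value of replicate 1 was nearly that of control replicate 1, so the difference in H2afx (0.51, adjusted p = 0.311 by edgeR) rested on control replicate 3, and it was 0.98 without control replicate 1 and 0.15 without control replicate 3. Per kilobase of exon, H2afx had the highest level of the 36, at 67.4 CPM per kb, and Parp1 came next at 26.3 CPM per kb.

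Among the break sensors, Rad50 and Parp1 were lower in both INK128 libraries and Mre11a and Nbn overlapped. Rad50, the tether of the MRN complex, was at 31.6 and 29.2 CPM against 49.8 and 48.7 CPM, with replicates close together in both groups (log2 fold change −0.70, standard error 0.18, adjusted p = 0.0729 by edgeR, adjusted p = 0.0163 by DESeq2). Its complex partners overlapped. Mre11a, the nuclease, was at 24.2 and 18.7 CPM against 24 and 25.3 CPM. Nbn, the third member of the complex, was at 25.9 and 25 CPM against 29.0 and 25.8 CPM. Parp1, which detects breaks and adds ADP-ribose chains, was the most counted member, with up to 3724 counts in a library, at 113 and 126 CPM against 160 and 157 CPM. Its log2 fold change was −0.41, and it did not pass the test (adjusted p = 0.155 by edgeR).

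The 12 homologous recombination genes showed no common direction. Of the 7 tested, 1 lay below both controls (34.0% of all genes), 3 lay above (34.5%) and 3 overlapped, with a median log2 fold change of −0.18 and no call. The median was 0.40 without control replicate 1 and −0.11 without control replicate 3. Brca1, which opens the pathway, was the one below, at 12.1 and 10.3 CPM against 22.4 and 14.8 CPM (−0.73, adjusted p = 0.184 by edgeR). Its value was −0.40 without control replicate 1 and −1.0 without control replicate 3. Brca2, which acts at the resected ends, was at 12.9 and 14.9 CPM against 24 and 14.0 CPM, so its groups overlapped. Exo1, a resection nuclease, was at 15.5 and 11.4 CPM, and its controls at 22.1 and 8.35 CPM enclosed both. The members above both controls were Rad54l, the motor that remodels the recombination filament, at 97.4 and 86.7 CPM against 78.9 and 56.3 CPM, Rad52, at 12.9 and 18.2 CPM against 10.4 and 8.94 CPM, and Rad51d, at 25.8 and 28.4 CPM against 15.4 and 20.5 CPM. Their log2 fold changes were 0.44, 0.68 and 0.59 and none passed the test. In the same order the values were 0.71, 0.80 and 0.40 without control replicate 1 and 0.22, 0.58 and 0.82 without control replicate 3. Xrcc2, which works in a complex with Rad51d, was at 11.4 and 8.97 CPM against 11.0 and 14.3 CPM and overlapped.

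Of the 5 recombination genes with a mean under 10 CPM, 4 overlapped between groups. Bard1, the partner of BRCA1, had a log2 fold change of −0.14, and Palb2, which joins BRCA1 to BRCA2, of −0.07. Palb2 was the lowest member per kilobase, at 0.554 CPM per kb. Xrcc3 and Rad51b had log2 fold changes of 0.13 and 0.15. Rad51c, the partner of Xrcc3, was at 6.07 and 6.67 CPM against 4.74 and 3.96 CPM and so lay above both controls (0.60, adjusted p = 0.302 in the edgeR fit on genes above 1 CPM).

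The helicases Wrn and Blm, of the RecQ family that resolves recombination structures and telomeric DNA, were lower in both INK128 libraries. Wrn was at 11.6 and 14.0 CPM against 30.5 and 31.4 CPM, the second lowest fold change of the list after Atm. Its log2 fold change of −1.27 (standard error 0.23) missed the threshold in edgeR (adjusted p = 0.0507) and passed in DESeq2 (adjusted p = 0.00033). The value was −1.29 without control replicate 1 and −1.25 without control replicate 3. Blm was at 10.4 and 8.51 CPM against 18.6 and 13.2 CPM (−0.75, adjusted p = 0.171 by edgeR).

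The Fanconi genes pointed in both directions. Fancc, a subunit of the core complex that tags crosslinks for repair, was at 66.1 and 73.6 CPM with INK128 and at 16.9 and 21.6 CPM in controls. Both INK128 libraries were above both controls by a wide margin, on 1231 and 1601 counts against 382 and 512. Fancc rose 3.63-fold (log2 fold change 1.86, standard error 0.22, adjusted p = 0.0464 by edgeR), and the value was 1.69 without control replicate 1 and 2.05 without control replicate 3. The call was lost with mean CPM above 1 (adjusted p = 0.0555 by edgeR), with GC content offsets (adjusted p = 0.051 by edgeR) and in limma voom (adjusted p = 0.0599), at log2 fold changes of 1.91, 1.78 and 1.86. It ranked 80 from the highest among all 11758 genes and 3 among the 983 genes with exons of 8000 to 10000 bases. Fancc lies at chr13:63285043-63497278 on mm10, and 16.4% of its 8359 exon bases overlap Gm16133 on the other strand. The library kit did not mark strand, so reads of the overlap cannot be told apart. Gm16133 had 159 and 244 counts with INK128 and 82 and 113 in controls.

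Fancm, the translocase that anchors the core complex, went the other way, at 6.82 and 8.69 CPM against 16.2 and 17.1 CPM (log2 fold change −1.10, adjusted p = 0.075 by edgeR, adjusted p = 0.0166 by DESeq2). Fanca, another core subunit, overlapped at 15.2 and 18.4 CPM against 20.4 and 17.5 CPM. The proteins of Fanci and Fancd2 form the clamp that the core complex ubiquitinates. Fanci was at 31.5 and 31.1 CPM against 21.3 and 16.1 CPM, above both controls (0.75, adjusted p = 0.104 by edgeR). Fancd2 was at 6.39 and 4.74 CPM against 8.63 and 8.10 CPM, below both (−0.53, adjusted p = 0.336 in the fit on genes above 1 CPM).

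In end joining, the Ku subunits Xrcc6 and Xrcc5, which cap broken ends, lay just above both controls, and Lig4, the ligase, just below. Xrcc6 was at 46.2 and 53.5 CPM against 45.1 and 39.1 CPM (log2 fold change 0.24). Xrcc5 was at 46.3 and 40.9 CPM against 38.0 and 35.5 CPM (0.25). Lig4 was at 10.2 and 8.97 CPM against 10.5 and 15.7 CPM (−0.45, or −0.72 without control replicate 1 and −0.14 without control replicate 3). None of these passed the test, and the nearest libraries of the groups differed by little.

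Besides Fancc, 8 members share at least 5.51% of their exon bases with a gene on the other strand, and counting without strand cannot separate these reads. The largest shares were 15.9% for Fanci with Polg, 15.4% for Rad54l with Lrrc41 and 15.0% for Trp53bp1 with Tubgcp4. The log2 fold changes of these neighbours were 0.09 for Polg, −0.17 for Lrrc41 and −0.27 for Tubgcp4, and none of the 3 passed the edgeR test.

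Transcript length went with the fold change, for these genes and for the whole table. Exon length, the summed length of all annotated exons of a gene, had a median of 7597 bases in the 29 tested members and 4468 bases in all tested genes. Of the 8 members over 10000 bases, 7 lay below both controls, where 70.1% of the 1209 genes of that length did, and their median log2 fold change was −0.82 against −0.64 for the class. In the class from 8000 to 10000 bases, 2 of 5 members lay below, against 57.1% of genes. From 6000 to 8000 bases it was 2 of 3, against 48.0%, and from 4000 to 6000 bases 3 of 9, against 34.4%. None of the 4 members under 4000 bases lay below, against 12.7% of genes up to 2000 bases and 18.1% from 2000 to 4000 bases, classes with medians of 0.66 and 0.25. The log2 fold change correlated with log2 exon length at r = −0.45 across the 29 members and −0.31 across 11700 genes, which share the same 4 libraries and are not independent replicates. With the longest annotated transcript in place of summed exons, r was −0.63 and −0.35.

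**Figure D2:**
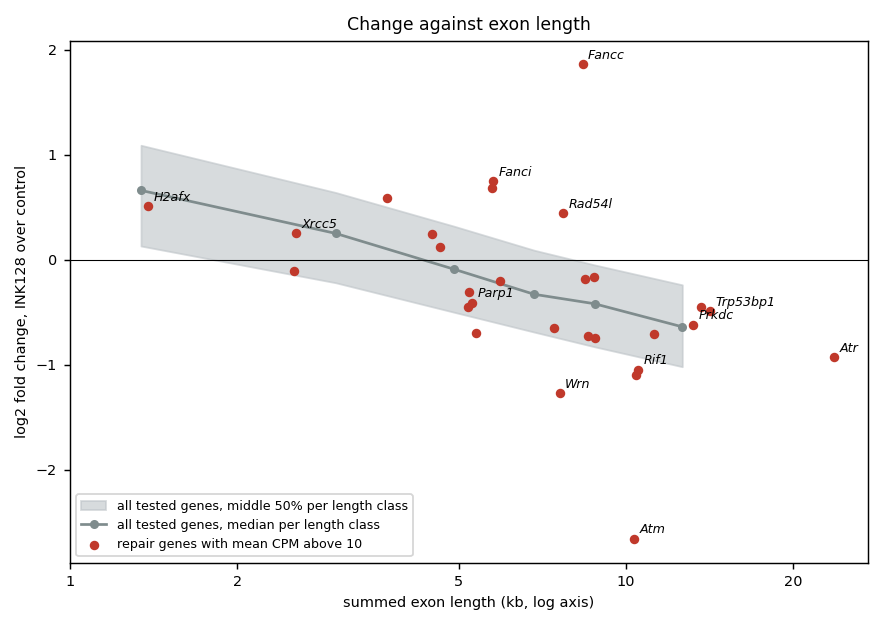
Log2 fold change (INK128 over control) against summed exon length (kb, log axis) for the 29 tested members, as red points, over all tested genes, whose median per length class is the grey line and whose middle 50% is the band. The class median of all genes goes from 0.66 in the shortest class to −0.64 in the longest, and Atm and Fancc lie far outside the band, at −2.66 and 1.86.

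When edgeR was run with offsets for exon length in each library, the median of the 29 members was −0.12 against −0.04 for all genes, with 10 below both controls (31.0% of all genes) and 6 above (29.7%). No gene of the table was called (0.0%), and at an unadjusted p under 0.05 the members counted 3 lower and 3 higher, against 14.6% and 12.0% of all genes. Both calls were lost: Atm went from −2.66 to −2.18 (adjusted p = 0.0833 by edgeR) and Fancc from 1.86 to 2.23 (adjusted p = 0.0721 by edgeR). Wrn, of 7597 bases, was at −0.96 and Rad50, of 5375 bases, at −0.60. Long members shifted upwards and the shortest downwards. Atr, with 23629 exon bases the longest member, went from −0.93 to −0.09. Prkdc went from −0.62 to −0.04, Topbp1 from −0.71 to −0.20 and Trp53bp1, of 14164 bases, from −0.49 to 0.12. At the short end, H2afx, of 1384 bases, went from 0.51 to −0.14. The summed exons and the longest transcript differ for some genes: Atr has a longest transcript of 8102 bases, and offsets built on that length gave −0.30 for Atr, −1.88 for Atm and 1.79 for Fancc. How far the lower values of the long members follow length was not tested beyond these offsets.

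**Figure D3:**
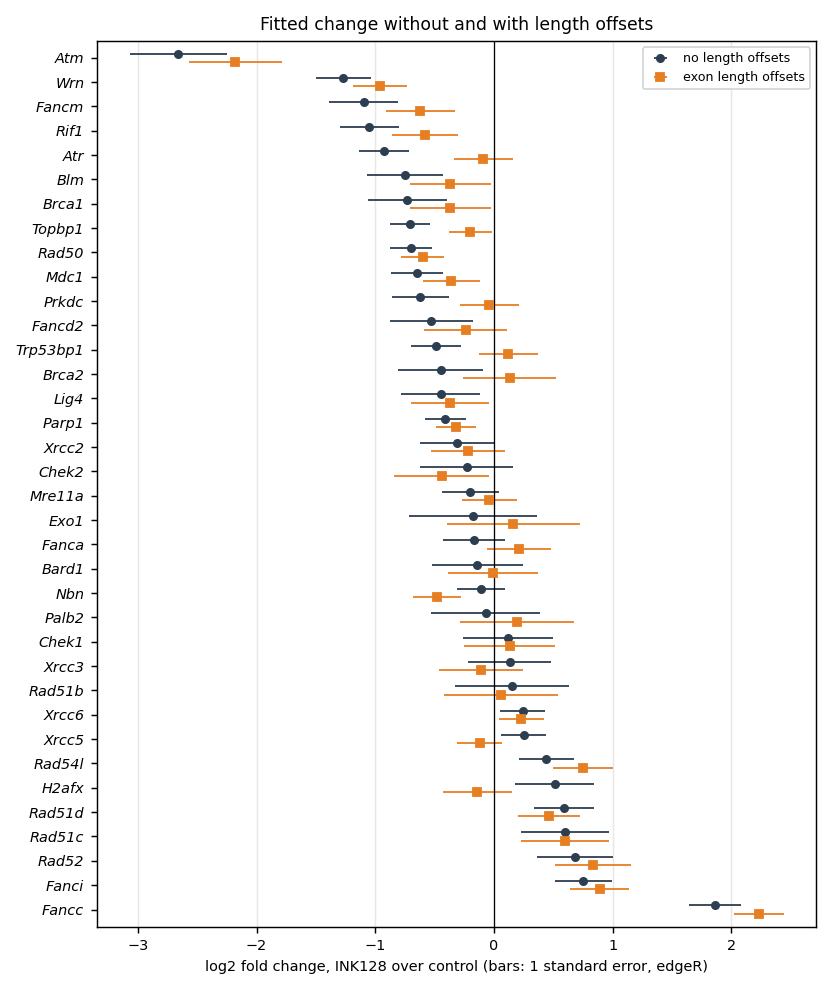
Fitted log2 fold change (INK128 over control) of each of the 36 genes by edgeR without length offsets (dark circles) and with exon length offsets (orange squares), with bars of 1 standard error. Most long genes, such as Atr at −0.93 and −0.09, shift to the right with the offsets, while Atm at −2.66 and −2.18 stays the lowest and Fancc at 1.86 and 2.23 the highest.

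Ratios of counts between genes whose proteins work together were formed within each library, which removes library scaling but not length. The 13 pairs were chosen with the counts known, so the ratios are descriptions with no test. The ratio of Xrcc6 to Xrcc5, the Ku partners, was 0.998 and 1.31 with INK128 and 1.19 and 1.10 in controls, and overlapped. Nbn to Mre11a overlapped as well, at 1.07 and 1.33 against 1.20 and 1.02. Rad51c to Rad51b was the third overlapping pair, at 1.47 and 1.02 against 0.759 and 1.06. The other pairs did not overlap, and the share of all gene pairs whose ratios do not overlap was not computed. Brca1 to Bard1, Brca2 to Palb2, Mdc1 to H2afx and Rif1 to Trp53bp1 were lower with INK128, and Rad51c to Xrcc3 was higher. Values of the remaining pairs follow. Fancd2 to Fanci was 0.203 and 0.152 with INK128 and 0.406 and 0.503 in controls, a log2 difference of −1.36. Prkdc to Xrcc5, the kinase to its Ku partner, was 0.298 and 0.381 against 0.607 and 0.622 (−0.87). Prkdc has 13187 exon bases and Xrcc5 2555. Rad51d to Xrcc2, of 3714 and 5216 bases, was 2.26 and 3.17 against 1.40 and 1.44 (0.91). Both pairs differ in length, and the part of length in these ratios was not tested. Rad50 to Mre11a, of 5375 and 5927 bases, was 1.31 and 1.56 against 2.07 and 1.93 (−0.49). Atm to Atr was 0.151 and 0.201 against 0.406 and 0.807, with the controls further apart than the INK128 libraries.

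**Figure D4:**
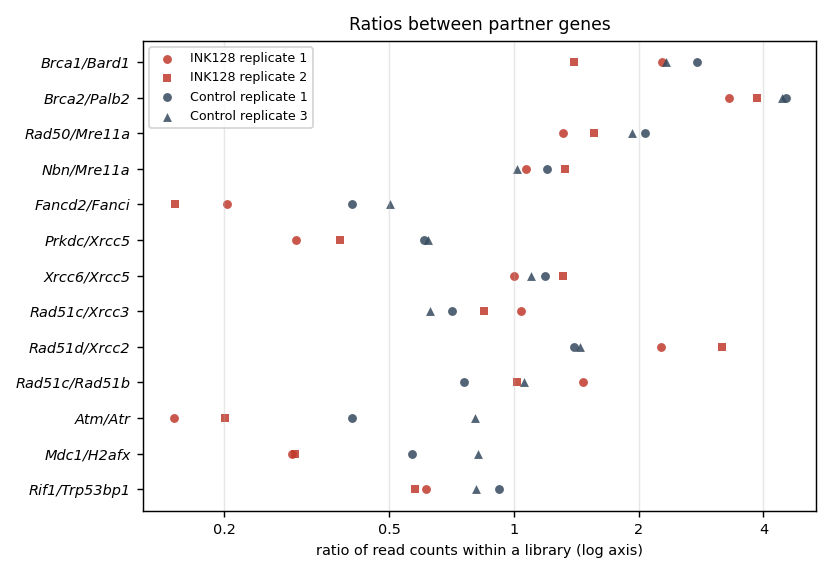
Ratio of read counts between partner genes within each library (log axis), with red points for INK128 libraries and dark points for controls. The INK128 and control points are mixed for Xrcc6/Xrcc5 and Nbn/Mre11a and apart for Fancd2/Fanci, Prkdc/Xrcc5 and Rad51d/Xrcc2, with 0.203 and 0.152 against 0.406 and 0.503 for Fancd2/Fanci.

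The control libraries differed over 1.5-fold in 9 of the 36 members (Atm, Chek1, Chek2, H2afx, Brca1, Brca2, Palb2, Rad51b and Exo1), and the INK128 libraries in 1 (Rad51b). In 27 members control replicate 1 was the higher control and in 9 control replicate 3 was. The median deviation of the 29 tested members from their mean log2 level was 0.33 in control replicate 1 and 0.07 in control replicate 3, against −0.21 and −0.18 in the INK128 libraries. Exo1 was the widest, its controls being at 22.1 and 8.35 CPM. Its log2 fold change was 0.68 without control replicate 1 and −0.72 without control replicate 3.

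A wider list held 103 repair factors outside the 36. Over the 82 that were tested, the median log2 fold change was 0.17, or 0.18 with length offsets, and over all 103, in the fit on genes above 1 CPM, it was 0.21, or 0.23 with length offsets. Among the 82, edgeR called none. At an unadjusted p under 0.05, 8 were lower and 17 higher, where 18.7% and 17.7% of all genes were, while DESeq2 called 5 lower and 15 higher, against 15.1% and 13.6% of all genes. Both INK128 libraries lay below both controls for 20 and above for 34 of the 82, against 34.0% and 34.5%. Without control replicate 1 the median was 0.15, with 7 called lower and 27 higher (23.2% and 22.7% of all genes), and without control replicate 3 it was 0.05, with 5 lower and 17 higher (21.4% and 21.2%). Each sublist held genes at both ends. Among checkpoint and mediator genes, the values were −0.98 for Wee1, −0.65 for Hus1 and −0.29 for Paxip1 at the low end and 1.20 for Rad9a, 1.0 for Tipin and 0.86 for Uimc1 at the high end. Hus1 and Rad9a encode subunits of one checkpoint clamp.

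Among the further recombination and Fanconi genes, Slx4, Rmi1 and Brip1 were lowest (−0.73, −0.64 and −0.63). Ube2t, the ubiquitin-conjugating enzyme of the Fanconi pathway, Mus81, a structure-cutting nuclease, and Rpa3, a subunit of the single-strand binding complex, were highest (1.35, 1.19 and 1.10). The controls of Ube2t were far apart, at 11.2 and 3.29 CPM, against 20.5 and 16.3 CPM with INK128. Mus81 was at 32.1 and 29.5 CPM with INK128 and at 14.1 and 13.0 CPM in controls (adjusted p = 0.0507 by edgeR, adjusted p = 0.000494 by DESeq2). In end joining and single-strand break repair, Dclre1c, Polq and Lig3 stood at −0.88, −0.83 and −0.49 and Nhej1 and Aptx at 1.08 and 0.66. In excision, mismatch and translesion repair, Ercc6, Rev3l and Polk stood at −1.29, −0.85 and −0.79 and Nthl1, Mpg and Mutyh at 1.36, 1.07 and 0.98. Ercc6 and Rev3l have 12851 and 13293 exon bases, and Nthl1 and Mutyh 2718 and 2612.

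Target genes of p53, the transcription factor that ATM and the checkpoint kinases activate, had a median log2 fold change of −0.50, or −0.27 with length offsets. Of 20 listed, 2 of them (Polk and Ddb2) also in the wider repair list, 17 were tested, 10 lay below both controls (34.0% of all genes) and 3 above (34.5%). One target passed the edgeR test, and it rose: Bax, which opens the mitochondrial outer membrane in apoptosis, was at 85.8 and 87.9 CPM with INK128 and at 44.1 CPM in each control (0.98, standard error 0.16, adjusted p = 0.0476), and the value was also 0.98 without control replicate 1 or control replicate 3. With length offsets Bax, of 1576 exon bases, was at 0.35 and not called (adjusted p = 0.248 by edgeR). DESeq2 called 4 of the 17 targets lower, against 15.1% of all genes, named here after their values were seen. Cdkn1a, the cell cycle inhibitor p21, was at 13.3 and 17.8 CPM against 64.5 and 27.4 CPM (−1.56, adjusted p = 0.0952 by edgeR). Ccng1 was at 51.2 and 46.6 CPM against 125 and 93.5 CPM (−1.16, adjusted p = 0.0507 by edgeR), and Eda2r and Sesn2 had values of −1.37 and −1.72. In Cdkn1a and Sesn2 control replicate 1 was over 2-fold above control replicate 3.

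**Figure D5:**
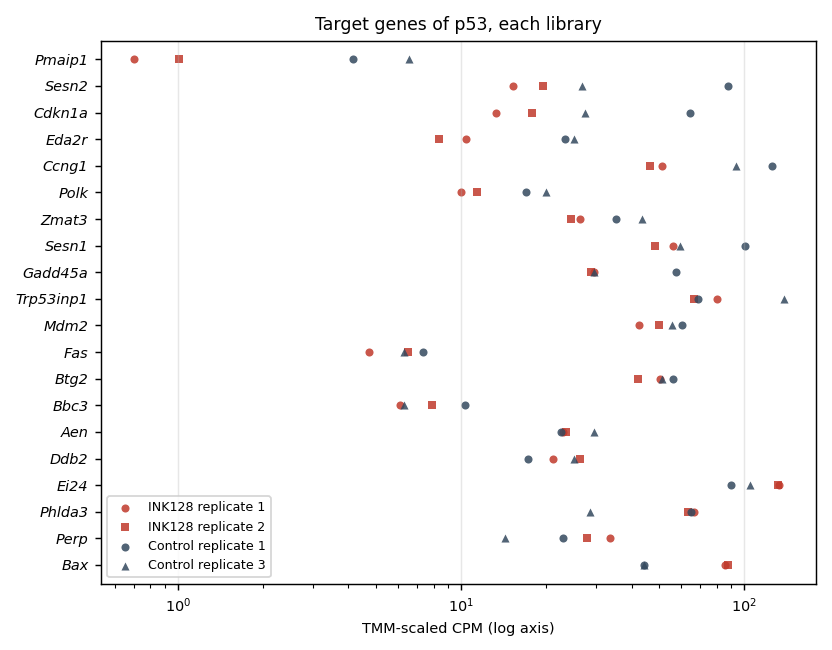
TMM-scaled CPM (log axis) of 20 target genes of p53 in each library, ordered by log2 fold change from the lowest (top), with red points for INK128 and dark points for controls. Bax, at the bottom, is at 85.8 and 87.9 CPM with INK128 and 44.1 CPM in both controls, while Cdkn1a and Ccng1 near the top have both INK128 points to the left of the controls.

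Genes of S phase and mitosis, whose levels go with the share of dividing cells, were tested for all 25 listed. None was called by edgeR or DESeq2, with 1 lower and 1 higher at an unadjusted p under 0.05 in edgeR (18.7% and 17.7% of all genes) and 1 and 2 in DESeq2 (21.4% and 18.8%). Of these 4 lay below both controls and 9 above, against 34.0% and 34.5% of all genes, with a median log2 fold change of 0.21, or −0.03 with length offsets. The values turned with the control left out. Without control replicate 1 the median was 0.46, 21 lay above (45.8% of all genes) and 10 were called higher (22.7%). Without control replicate 3 the median was −0.06, 13 lay below (44.6%) and 9 above (45.0%). Top2a, Rrm1 and Mki67 were lowest (−0.55, −0.51 and −0.38), and Birc5, Tyms and Pcna highest (0.97, 0.82 and 0.58).

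Markers of the cell types in the grafts also differed between libraries. Of 16 kidney markers, 14 lay below both controls with INK128 and 1 above, and none was at 0 in both INK128 libraries. For this list and those that follow, 33.0% of all genes with a mean above 1 CPM lay below both controls and 33.1% above. Umod, of the thick ascending limb, was at 0.376 and 0.506 CPM against 6.07 and 54.7 CPM. Of 17 immune markers, 13 lay below both controls and none above, with summed levels of 446 to 458 CPM against 704 to 897 CPM. The sum over 13 oocyte markers was 1280 and 942 CPM with INK128 and 899 CPM in control replicate 1, but 45.1 CPM in control replicate 3, where Zp3, a zona pellucida gene, was at 3.33 CPM against 130 to 171 CPM elsewhere. Of these 13, 9 lay above both controls and 1 below, which was Sycp3, at 9.88 and 5.47 CPM against 17.3 and 14.5 CPM. The sum over 8 granulosa markers was 6450 and 8400 CPM against 3170 and 6800 CPM, and over 8 endothelial markers 550 and 600 CPM against 633 and 811 CPM, with 2 of the 8 below both controls and 2 above. Over 6 erythroid markers the sum was 97.6 and 91.6 CPM against 26.5 and 60.2 CPM, with 2 of the 6 below both controls and 3 above. Fewer cells of a type and less RNA per cell cannot be told apart in these bulk samples, and the part of these cell types in the values of Atm, Fancc and the other members was not tested.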

How the data were processed

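The authors deposited read counts per gene symbol for 4 libraries. Per the labels and the study's methods, reads from poly(A) RNA (a kit that does not mark strand) were trimmed with Trimmomatic, aligned to mm10 with HISAT2 and counted with featureCounts; versions are not given in the sources used here. No library column lacked a sample.

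Counts were tested here with edgeR 4.0.16 (R 4.3.3) by quasi-likelihood F-tests with TMM scaling, on genes with a mean above 10 CPM, and called at a Benjamini-Hochberg adjusted p under 0.05 and over 1.5-fold. The study's own test was DESeq2, run here (1.42.0) as an alternative with limma voom (3.58.1). CPM values are TMM-scaled, and the common dispersion was 0.0949. The 7 members below the filter come from the same fit on 17631 genes above 1 CPM. Exon lengths, positions and overlaps came from GENCODE M21 (mm10), while the study names RefGene for counting, so lengths may differ from those counted. Length offsets were loess fits (span 0.5) per library.

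The members, lists and tests were chosen with earlier results of these data known. All members are named. A gene of the further lists that the rule below would name is not reported here. From the wider repair, p53 target and S phase lists, up to 3 lowest and 3 highest genes were named among those called, or, with none called, among those whose groups do not overlap. Marker lists are given as counts and summed levels, with a defining marker. Alternatives covered the test, scaling, filter, length, GC content and each library left out. RefSeq promoters gave sequences. Floors cover counting error only.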

Additional observations from a re-analysis of the deposited data

How the results depend on the processing

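Under the other processing choices, the counts of called members moved more than their fold changes. With edgeR, 1 member was called lower and 1 higher. The lower count was 7 with DESeq2, 2 with library totals alone (4.93% of all genes), 3 with CPM above 10 in all 4 libraries (Atr, Rif1 and Wrn, since Atm is not tested there; 7.14% of all genes) and 3 with every gene of at least 1 count (6.2%). It was 0, as was the higher count, with limma voom (9 lower and 2 higher at an unadjusted p under 0.05, against 15.5% and 18.3% of all genes), with mean CPM above 1, with exon length offsets, with GC content offsets and with longest transcript length offsets, an alternative added after the data were seen. Leaving out 1 library gave 0 to 12 lower and 0 to 4 higher: 8 and 4 without control replicate 1, 12 and 2 without control replicate 3 (when 23.2% and 21.4% of all genes were called lower), and 0 without either INK128 library. The lone library is then assumed to vary like the other group. The median log2 fold change was −0.19 with mean CPM above 1, −0.22 with CPM above 10 in all 4 libraries, −0.20 with at least 1 count, −0.12 with exon length offsets and −0.09 with longest transcript length offsets, where 9 members lay below both controls (29.8% of all genes). With library totals alone 19 lay below (40.1%) and 4 above (28.5%). In the wider list, 20 genes were called in either direction by DESeq2, where 15.1% of all genes were called lower and 13.6% higher. The number was 8 with CPM above 10 in all 4 libraries (7.14% and 8.0% of all genes). With at least 1 count it was 9 (6.2% and 3.66%). Over single members, 27 of 476 values changed sign, none of them of a called gene. With exon length offsets these were H2afx (−0.14), Trp53bp1 (0.12), Brca2 (0.13), Palb2 (0.19), Xrcc3 (−0.11), Exo1 (0.16), Fanca (0.21) and Xrcc5 (−0.12). With longest transcript offsets they were Prkdc (0.26), H2afx (−0.10), Trp53bp1 (0.23), Mre11a (0.20), Brca2 (0.31), Exo1 (0.38) and Fanca (0.03), and with GC content offsets Nbn (0.03). Without 1 library, values of both signs were seen for Chek1 (−0.24 to 0.61), Chek2 (−0.52 to 0.13), Bard1 (−0.41 to 0.06), Palb2 (−0.39 to 0.35), Rad51b (−0.24 to 0.56), Xrcc3 (−0.12 to 0.31) and Exo1 (−0.72 to 0.68). Relative log expression and upper quartile scaling changed no call. The cause of these differences was not tested. No paired analysis was possible because the groups share fewer than 2 replicate numbers. Member counts in a library ran from 52 to 3724, and the lowest was of Atm.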
